A study of Apis mellifera with 79 samples.

Results

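The 10 genes described here are taken from a list of 16 transcription factors of the honey bee brain that the study singled out, and they are the members left after Kr-h1, Mblk-1, Foxp, dachshund, Sox-2 and the retinal homeobox gene are set aside. They were taken by their gene IDs, and all 10 were found in each of the 4 expression tables, which together list 11525 genes. They were chosen by the levels in exposed and unexposed field foragers, the contrast from which the list was drawn up, so the values of that contrast are given only as a description.

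RNA was sequenced from dissected brains of worker honey bees (Apis mellifera), either nurses, which tend brood inside the hive, or foragers, which collect food outside it. In the field experiment, exposed bees came from colonies standing near corn grown from neonicotinoid-treated seed, and unexposed bees from colonies at least 3 km away from agriculture. Each of these libraries pooled 5 brains of 1 colony and caste, with 5 exposed and 5 unexposed forager pools, 5 exposed nurse pools and 4 unexposed nurse pools. In the apiary experiment, 3 exposed colonies (C21, C23, C28) were fed pollen with the neonicotinoid clothianidin, at 4.9 ppb in the first week and lowered weekly to 2.0 ppb, and 3 unexposed colonies (C25, C26, C27) were fed pollen without it. Bees were taken on day 30, and each apiary library is 1 brain, with 15 bees of each caste and exposure, 5 from each colony. The exposed field colonies all stood at 1 site and the unexposed ones at another, so exposure and site cannot be told apart in the field.

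Levels are given as log2 CPM, the base 2 logarithm of CPM, the reads of a gene scaled to the size of its library, and on this scale a difference of 1 is a doubling. The libraries held 10.5 to 45.1 M reads in genes, and the 10 genes had between 173 and 13886 reads in a library. The brain markers Mblk-1 (408 to 3400 CPM), Foxp (36.6 to 185 CPM) and dachshund (9.71 to 62.9 CPM) were detected in all 79 libraries. Alpha-amylase, a product of the hypopharyngeal gland that lies beside the brain and was removed at dissection, ranged from 1.04 to 1330 CPM, and the cuticle protein gene CPR5 from 0.992 to 98.6 CPM. The exposed forager pool 2J1 and the unexposed nurse pool 2J6 stood apart from their groups over the whole table. Several results that rest on them are given with and without them, but the correlations across field pools only with them.

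Transcription factors bind DNA and raise or lower the output of other genes, and many that shape the insect nervous system during development stay active in the adult brain. In honey bees, the passage from nursing to foraging is accompanied by a broad shift in brain gene expression. Neonicotinoids act on nicotinic acetylcholine receptors, which carry much of the fast signalling in the insect brain.

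The roles of the 10 genes are known mostly from their homologues in the fruit fly. The repressors are LOC410468 (hairy, GB47799), a basic helix-loop-helix protein that silences genes through the corepressor Groucho, and LOC113218618 (tramtrack, GB47057), a zinc finger protein that holds back neuronal fates. LOC410253 (GB44976) is listed with vrille, the repressor of the circadian clock, as its fly homologue, but its annotated name is that of ataxin-2, an RNA-binding protein, and name and homologue do not match. The zinc finger gene LOC411780 (crooked legs, GB49050) responds to the moulting hormone ecdysone in the fly. Partner and elongation factors are LOC410347 (Big brother, GB45157), which binds Runt-domain proteins and steadies their hold on DNA, and LOC100577139 (lilliputian, GB55387), of the AF4 family of transcription elongation factors. Homeobox and fork head genes are LOC551364, LOC726415 and LOC724740. LOC551364 (Optix, named SIX3, GB49751) patterns the eye and the front of the brain. LOC726415 (GB45063) is listed with tailup, a LIM homeobox gene of neuron identity in the fly, but its annotated name is that of Lhx9. It is called tailup below as listed, and that identity was not tested. LOC724740 (sloppy paired 2, GB44229) is a fork head gene of segmentation and of neural stem cells. LOC726709 (GB52109) is listed with klarsicht, which in the fly positions nuclei and moves cargo along microtubules and is not a DNA-binding factor.

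In field foragers, the contrast that chose these genes, 1 gene lay lower and 9 lay higher in exposed pools. The crooked legs homologue LOC411780 measured 6.66, 6.86, 6.81, 6.71 and 6.68 log2 CPM in the unexposed pools 1J7, 1J9, 2J10, 2J6 and 2J7. Its exposed pools 2J1, 2J2, 2J3, 2J4 and 2J5 measured 6.47, 6.14, 6.5, 6.37 and 6.34. All exposed pools lay below all unexposed pools, with a mean difference of -0.38, and 4.87% of all genes in the table separated in the same direction.

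The other 9 genes shared another arrangement, in which 4 exposed pools lay above every unexposed pool and the pool 2J1 did not. The largest difference was that of sloppy paired 2 (LOC724740), at 0.84, or 1.79-fold. Its unexposed pools measured 3.67, 3.87, 3.83, 3.2 and 3.24 log2 CPM in the order above, and its exposed pools 3.31, 4.89, 4.55, 4.44 and 4.82. Of the exposed pools 4 were high, and 2J1 sat among the unexposed ones.

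The LIM homeobox gene LOC726415 (tailup) differed by 0.72. It measured 5.46, 5.93, 5.77, 5.55 and 5.39 log2 CPM in unexposed pools and 5.28, 6.52, 6.79, 6.43 and 6.66 in exposed pools. Here 2J1 was the lowest of all 10 pools. For tramtrack (LOC113218618), the unexposed pools measured 6.5, 6.54, 6.81, 6.40 and 5.93 and the exposed pools 6.19, 7.24, 7.27, 7.26 and 7.31. Its 4 high exposed pools lay within a narrow span, and the unexposed pool 2J7 was the lowest.

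For lilliputian (LOC100577139), the unexposed pools measured 7.30, 7.31, 7.42, 7.09 and 6.74 log2 CPM and the exposed pools 7.01, 7.92, 8.02, 7.95 and 8.12. The same pools were high and low as for tramtrack. Its mean difference was 0.63, or 1.55-fold, and that of tramtrack 0.62, or 1.53-fold.

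Optix (LOC551364) measured 4.05, 4.01, 4.22, 3.77 and 3.79 log2 CPM in unexposed and 3.9, 4.89, 4.74, 4.76 and 4.91 in exposed pools, a mean difference of 0.67. Hairy (LOC410468) measured 5.71, 5.80, 5.61, 5.48 and 5.30 in unexposed and 5.38, 6.58, 6.12, 6.48 and 6.27 in exposed pools, a mean difference of 0.59. Both genes again had 4 high exposed pools and a value of 2J1 within the unexposed range.

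LOC410253 measured 6.77, 6.85, 6.80, 6.54 and 6.24 log2 CPM in unexposed and 6.52, 7.57, 7.29, 7.32 and 7.44 in exposed pools, a mean difference of 0.59. LOC726709, listed with klarsicht, measured 6.45, 6.60, 6.72, 6.38 and 6.06 in unexposed and 6.35, 7.02, 7.25, 7.03 and 7.25 in exposed pools, a mean difference of 0.54. Big brother (LOC410347) had the smallest mean difference of the 9, 0.51, with unexposed pools at 6.09, 6.12, 6.36, 5.84 and 5.92 and exposed pools at 6.12, 6.90, 6.74, 6.45 and 6.69.

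Over the 9 genes the differences spanned 0.51 to 0.84 with all pools and 0.63 to 1.11 without 2J1. None of the 9 genes separated upwards with all pools, and 9 of 9 did without 2J1. Over all genes the shares in that direction were 0.756% and 12.2%, and 12.4% separated downwards without 2J1. These pools chose the genes, and 2J1 was left out after its values were seen. The 9 of 9 was thus set beforehand, and setting it against 12.2% shows nothing about the genes. Over the whole table of 10976 genes, limma called none (0.0%) with all pools, and 24.2% had an unadjusted p below 0.05. Without 2J1, 2921 genes were called. The study, with edgeR on counts, called genes in this contrast with all pools, these factors among them. The tests differ, and why limma called none was not tested. Of the other 6 factors of the list, the retinal homeobox gene lay higher in all exposed pools and Kr-h1 lower, and Mblk-1, Foxp, Sox-2 and dachshund showed 4 of 5 exposed pools above all unexposed pools.

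**Figure D1:**
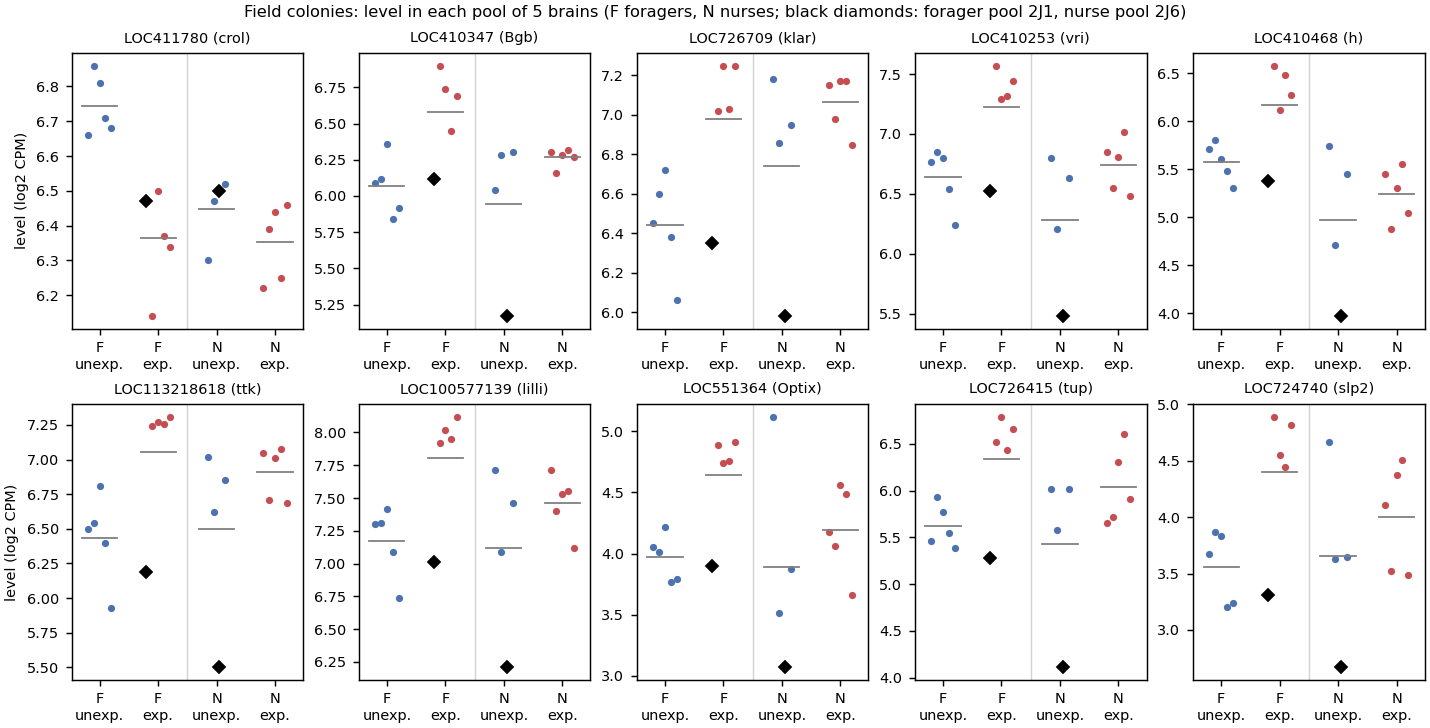
Level of each of the 10 genes (vertical axes, log2 CPM) in every field pool, by caste and exposure, with a grey bar at each group mean; forager and nurse values come from tables scaled separately. In foragers 4 exposed pools lie above all unexposed pools for 9 genes while pool 2J1 (black diamond) does not, and in nurses the unexposed pool 2J6 (black diamond) lies below all other nurse pools for the same 9 genes.

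In field nurses no difference between the exposed and the unexposed site passed the limma test in the 10 genes. The mean was higher in exposed pools for 9 of them, and the median difference was 0.33, against -0.007 over all genes. Without 1 unexposed pool the median difference of the 10 genes was 0.05. No member passed at an adjusted p below 0.05, where 0 of 10852 genes (0.0%) did so, and none had an unadjusted p below 0.05, where 454 genes (4.18%) did. The tool limma-voom, run on the reads worked back from the values, likewise called none and gave 484 genes at that unadjusted p.

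That pool was 2J6, the lowest of all 9 nurse pools in 9 of the 10 genes, by 0.44 to 1.48 below the next pool. Tailup (LOC726415) measured 6.02, 4.11, 6.02 and 5.58 log2 CPM in the unexposed nurse pools 1J7, 2J6, 2J7 and 2J10. Its exposed nurse pools 2J1, 2J2, 2J3, 2J4 and 2J5 measured 5.65, 5.72, 6.30, 6.61 and 5.91. With 2J6 the difference was 0.61 (95% interval -0.23 to 1.45) and without it 0.17 (-0.32 to 0.65).

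For tramtrack (LOC113218618), the unexposed nurse pools measured 7.02, 5.50, 6.85 and 6.62 log2 CPM and the exposed pools 7.05, 6.71, 7.01, 7.08 and 6.69, so that the groups overlapped. Its difference was 0.41 (-0.19 to 1.01) with all pools and 0.08 (-0.20 to 0.36) without 2J6. For hairy (LOC410468), the unexposed pools measured 5.74, 3.97, 5.45 and 4.71 and the exposed pools 5.45, 4.88, 5.31, 5.55 and 5.04. The hairy difference was 0.28 with all pools and -0.05 without 2J6, a change of sign. In no member did the exposed nurse pools lie all above or all below the unexposed ones, where 0.663% and 0.829% of all genes did so with all pools and 1.12% and 1.23% without 2J6. Without 2J6 the largest of the 10 differences was 0.19 (-0.15 to 0.54), in LOC410253.

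Crooked legs (LOC411780) did not share the low value of 2J6. It measured 6.30, 6.5, 6.52 and 6.47 log2 CPM in unexposed and 6.22, 6.39, 6.44, 6.25 and 6.46 in exposed nurse pools, a difference of -0.09 (-0.27 to 0.09). Pool 2J6 stood apart over the whole table, being the lowest of its group in 36.5% and the highest in 42.5% of 10852 genes. It held 26.4 M reads and 12 CPM of alpha-amylase, against 491, 342 and 17 CPM in the other unexposed nurse pools and 2.74 to 8.96 CPM in the exposed ones. Likewise 2J1 was the lowest exposed forager pool in 33.8% and the highest in 33% of 10976 genes, with 155 CPM of alpha-amylase against 195 to 260 CPM in the other 4 exposed pools. The part of these differences in the results was not tested. The nurse pool 2J1 and the forager pool 2J6, from the same 2 colonies, did not repeat these positions, since nurse pool 2J1 was the lowest exposed nurse pool in 1 of the 9 genes and forager pool 2J6 the lowest unexposed forager pool in 3.

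In the apiary, where clothianidin was fed, no difference between exposed and unexposed bees passed the limma test in the 10 genes in either caste. In foragers 6 of the 10 differences were above 0 and that of Optix was 0.00, and in nurses 1 was above 0. All were smaller than 0.25 on the log2 scale. In foragers 1 of 11381 genes (0.00879%) passed, and no member did or had an unadjusted p below 0.05, against 1082 of all genes (9.51%). In nurses 6 of 11271 genes (0.0532%) passed, and again no member did or had an unadjusted p below 0.05, against 1712 of all genes (15.2%). By limma-voom 1 and 9 genes passed, with no member among them in either caste.

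For tramtrack (LOC113218618), exposed foragers had a lowest, median and highest level of 6.63, 7.61 and 7.99 log2 CPM and unexposed foragers of 7.16, 7.37 and 7.83. The exposed bees spread over a wider range that included that of the unexposed bees. The difference in means was 0.17 (95% interval -0.02 to 0.36, adjusted p = 0.569). In nurses the tramtrack difference was -0.08 (-0.32 to 0.15).

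For lilliputian (LOC100577139), exposed foragers had a lowest, median and highest level of 7.39, 8.43 and 8.67 log2 CPM and unexposed foragers of 7.88, 8.18 and 8.62. The difference was 0.14 (-0.06 to 0.35) in foragers and -0.14 (-0.42 to 0.14) in nurses. For sloppy paired 2 (LOC724740), which had the largest difference in field foragers, the apiary forager difference was -0.14 (-0.40 to 0.13) and the nurse difference -0.16 (-0.53 to 0.20). Tailup (LOC726415) differed by 0.07 (-0.22 to 0.37) in foragers and by -0.23 (-0.64 to 0.18) in nurses. Crooked legs (LOC411780) had the narrowest intervals, with a difference of -0.06 (-0.16 to 0.05) in foragers and -0.02 (-0.12 to 0.08) in nurses.

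A direct test of whether the exposure difference was unlike in the 2 castes of the apiary passed for 0 of the 10 genes, and none had an unadjusted p below 0.05. Over all, 0 of 11151 genes (0.0%) passed and 1621 (14.5%) had an unadjusted p below 0.05. The largest of the 10 caste differences in the exposure effect was 0.30 (-0.21 to 0.82), in tailup (LOC726415).

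**Figure D2:**
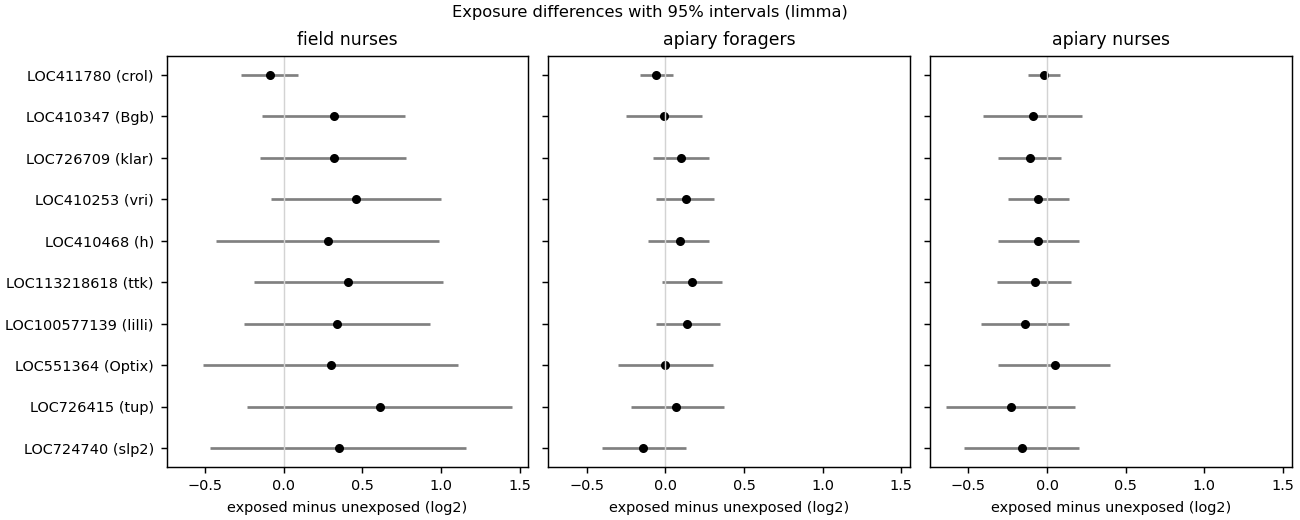
Difference between exposed and unexposed libraries in log2 CPM (horizontal axis) for each of the 10 genes in field nurses, apiary foragers and apiary nurses; points are limma estimates and bars their 95% intervals. Every interval includes 0, and the field nurse intervals, from 9 pools, are wider than those from 30 bees for each of the genes.

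The exposed foragers included the 2 bees that lay farthest below their colony's mean over the 9 genes other than crooked legs. Bee C23-F3 was the lowest of the 5 bees of its colony in 9 of these 9 genes, and the lowest of all 30 foragers in 8 of them. Bee C28-F9 was the lowest of its colony in 8 of the 9. C23-F3 measured 6.63 log2 CPM for tramtrack (LOC113218618) and 5.15 for tailup (LOC726415), where the medians of exposed foragers were 7.61 and 6.71. Over the whole table these bees had the largest and the third largest spread of differences from the rest of their colony among the 30 foragers. They held 36.3 and 20.1 M reads and 2.43 and 292 CPM of alpha-amylase, within the 2.34 to 485 CPM of exposed foragers. Both carried the number 4184, read as a sequencing run from the sample descriptions. That run held 7 of 15 exposed and 0 of 15 unexposed foragers, with the run of 2 unexposed columns taken from their group. Among nurses it held 6 of 15 exposed and 1 of 15 unexposed bees.

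Left out after their values were seen, which by construction raises the exposed mean, these 2 bees changed the outcome of the test. Tramtrack (LOC113218618) then differed by 0.28 and lilliputian (LOC100577139) by 0.27, both passing, while 534 of 11381 genes passed over the whole table. Leaving out the whole colony C23 instead gave 68 genes over the table and no member, with 5 members at an unadjusted p below 0.05, against 2077 of 11381 genes. With the sequencing run as a term in the model no member passed.

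In the apiary, 9 of the 10 genes were higher in foragers than in nurses in a joint limma fit of 60 bees, where 29.5% of 11151 genes were called higher in foragers and 58.9% in either direction (62.9% at an unadjusted p below 0.05). Of the other 6 factors of the list, 4 were called as well. In a brain extract, more cells that express a gene and more RNA per cell cannot be told apart. For this comparison the reads behind both tables were placed on 1 scale, so the levels differ slightly from those above. Alpha-amylase had group medians of 49.9 and 155 CPM in exposed and unexposed foragers and of 3.76 and 3.75 CPM in nurses, and its part in the caste differences was not tested.

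Hairy, a repressor, had the largest caste difference of the 10. Hairy (LOC410468) had a lowest, median and highest level of 5.52, 6.22 and 6.79 log2 CPM in foragers and of 4.43, 5.36 and 6.02 in nurses. Of 30 foragers, 27 lay above the highest nurse. The difference was 0.95 ± 0.08 (SE, n = 30 and 30 bees, limma adjusted p = 1.2e-14), or 1.94-fold, and foragers were higher in 6 of 6 colonies, by 0.67 to 1.38.

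LOC410253, listed with vrille, overlapped less between castes than hairy. It spanned 7.09, 7.55 and 8.13 log2 CPM (lowest, median, highest) in foragers and 6.0, 6.77 and 7.19 in nurses, with 28 of 30 foragers above the highest nurse and 27 of 30 nurses below the lowest forager, where hairy had 21. Its difference of 0.83 ± 0.07 (limma adjusted p = 3.13e-15), or 1.78-fold, was found in 6 of 6 colonies, by 0.57 to 1.20. The hour of collection is not given in the sources used here, so its part in the level of a gene listed with a clock factor was not tested.

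Lilliputian (LOC100577139) spanned 7.33, 8.25 and 8.67 log2 CPM in foragers and 6.82, 7.80 and 8.36 in nurses, a difference of 0.58 ± 0.09 (limma adjusted p = 2.67e-07). Tramtrack (LOC113218618) differed by 0.45 ± 0.08 (limma adjusted p = 3.62e-06), with foragers at 6.57, 7.45 and 7.98 and nurses at 6.25, 7.04 and 7.61. Both genes were higher in foragers in 6 of 6 colonies, though the ranges of the castes overlapped widely.

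Crooked legs (LOC411780) had a small difference of 0.25 ± 0.03 (limma adjusted p = 1.31e-08). Its foragers spanned 6.37, 6.69 and 6.92 log2 CPM and its nurses 6.03, 6.43 and 6.66, and foragers were higher in 6 of 6 colonies, by 0.08 to 0.35. Among the homeobox and fork head genes, tailup (LOC726415) differed by 0.53 ± 0.13, sloppy paired 2 (LOC724740) by 0.51 ± 0.11 and Optix (LOC551364) by 0.31 ± 0.12, with limma adjusted p of 0.000442, 0.000124 and 0.022. Big brother (LOC410347) differed by 0.28 ± 0.10 (limma adjusted p = 0.0135), and foragers were higher in 3 of 6 colonies.

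The klarsicht homologue LOC726709 was the member that did not pass, with a difference of 0.06 (95% interval -0.08 to 0.20). Its foragers spanned 6.63, 7.26 and 7.83 log2 CPM and its nurses 6.48, 7.24 and 7.79. Colonies disagreed in sign, from -0.30 in C23 to 0.64 in C21.

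**Figure D3:**
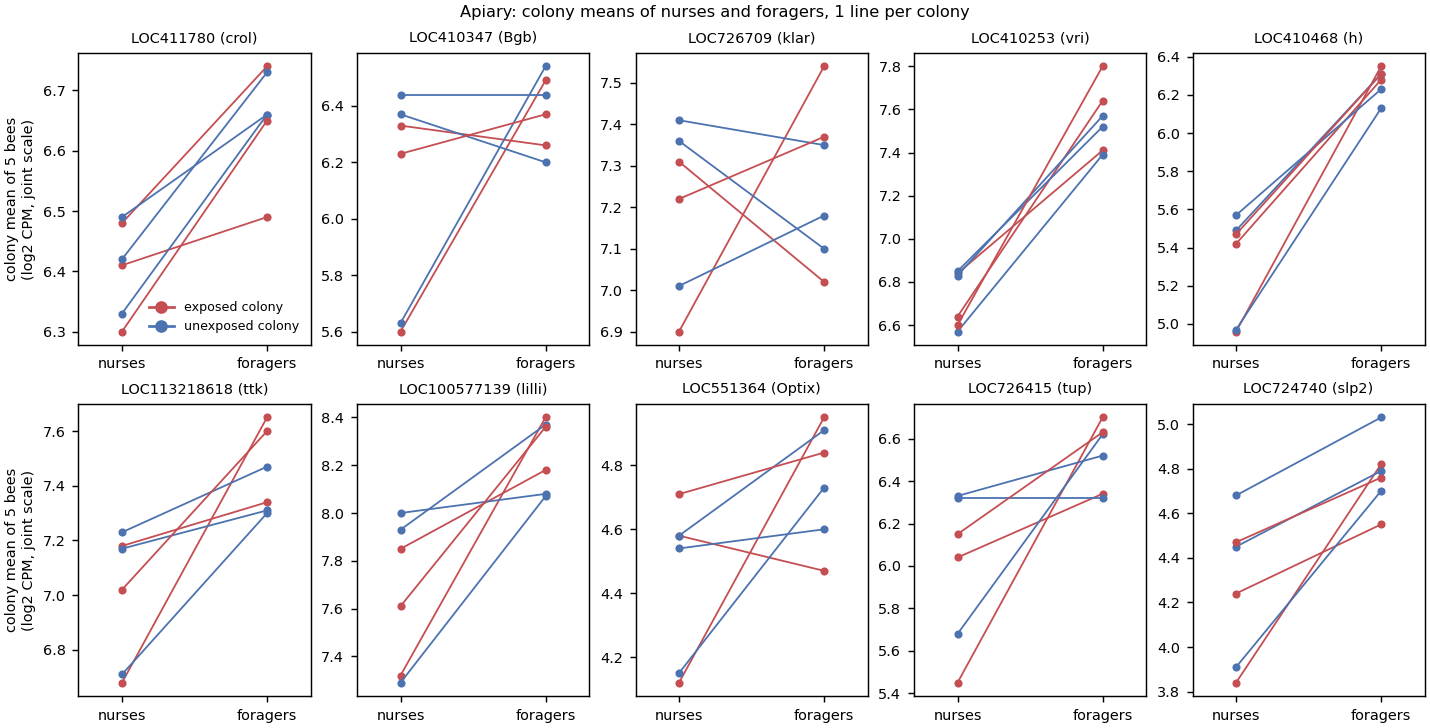
Colony means of nurses and foragers (vertical axes, log2 CPM on the joint scale of both castes; 5 bees a mean) for each of the 10 genes in the apiary, 1 line a colony, red for exposed and blue for unexposed colonies. Hairy and LOC410253 are higher in foragers in 6 of 6 colonies, whereas for Big brother 2 colonies, C21 and C25, carry steep lines and the other 4 are close to level.

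Colonies C21 and C25, 1 exposed and 1 unexposed, had the steepest caste differences in several genes. For Big brother (LOC410347) the caste difference was 0.89 in C21 and 0.90 in C25, and -0.06, 0.00, -0.17 and 0.14 in C23, C26, C27 and C28. With both colonies left out, an alternative chosen after their values were seen, 6 of the 10 genes passed, where 5583 of 11151 genes did. Those 6 were hairy at 0.80, LOC410253 at 0.79, lilliputian at 0.40, sloppy paired 2 at 0.32, crooked legs at 0.31 and tramtrack at 0.28. Big brother (-0.02), Optix (0.11) and tailup (0.24) no longer passed.

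In the field the same comparison of 10 forager and 9 nurse pools found 1 of the 10 genes, hairy, where 11.2% of 10734 genes were called higher in foragers and 21.7% in either direction (34.6% at an unadjusted p below 0.05, which 2 of the 10 genes reached). Hairy (LOC410468) measured 5.26, 5.71 and 6.51 log2 CPM (lowest, median, highest) in forager pools and 3.93, 5.31 and 5.74 in nurse pools. Its difference was 0.73 ± 0.20 (limma adjusted p = 0.0112), with foragers higher in 6 of the 9 colonies that had both castes. The lowest hairy value among nurses was that of pool 2J6, whose colony had a caste difference of 1.51. With 1 colony left out at a time the hairy difference lay between 0.62 and 0.85. LOC410253 differed by 0.39 ± 0.16 (limma adjusted p = 0.0864). It passed, at 0.48 in each case, without colony 2J1 or without colony 2J7, and at 0.36 without the forager pool 2J1 and the nurse pool 2J6.

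The other 8 genes differed by -0.23 to 0.23 between field castes, and their intervals were wide, as for tailup (LOC726415) at 0.20 (-0.29 to 0.69). LOC726709 was the member with a negative difference, -0.23 (-0.53 to 0.08). The forager pools entered the contrast that chose these genes. Whether the caste difference was unlike in field and apiary was not tested.

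Colonies of the same exposure were compared within each caste of the apiary, and the share of members that passed stood near that of all genes. In unexposed nurses an F test over 3 colonies passed for 4 of the 10 genes, where 27.8% of 11271 genes did so, and 6 had an unadjusted p below 0.05, against 43.2% of all genes. In exposed nurses it passed for 0 of 10, with 1.07% over all genes, and 4 of the 10 had an unadjusted p below 0.05, against 24.3% of all genes. In foragers no member passed, where 0.0967% of 11381 genes did in exposed and 0.571% in unexposed colonies, and 2 members in each had an unadjusted p below 0.05, against 9.5% and 13% of all genes. By limma-voom the same numbers of members passed, 4 in unexposed nurses and 0 elsewhere.

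The nurses of colony C25 were low in the 4 genes that passed. Lilliputian (LOC100577139) averaged 7.35 ± 0.30 log2 CPM (SD, n = 5 bees) in C25, 8.05 ± 0.25 in C26 and 7.98 ± 0.16 in C27 (limma F test, adjusted p = 0.00629). Big brother (LOC410347) averaged 5.70 ± 0.47, 6.48 ± 0.11 and 6.41 ± 0.16 in the same colonies (limma F test, adjusted p = 0.00747), and all 5 nurses of C25 lay below all 10 nurses of C26 and C27, with a highest value of 6.22 against a lowest of 6.26.

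Hairy (LOC410468) averaged 5.04 ± 0.19, 5.54 ± 0.21 and 5.61 ± 0.26 log2 CPM in C25, C26 and C27 (limma F test, adjusted p = 0.0103), and tramtrack (LOC113218618) 6.78 ± 0.26, 7.22 ± 0.14 and 7.28 ± 0.24 (limma F test, adjusted p = 0.0156). Crooked legs (LOC411780) had its highest mean in C25, at 6.56 ± 0.11, beside 6.47 ± 0.04 and 6.38 ± 0.15, and did not pass (limma F test, adjusted p = 0.132).

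Among exposed nurses, colony C21 had the lowest mean in 8 of the 10 genes. Since the genes correlate across bees, these 8 are not separate events, and the share over all genes was not computed. Big brother (LOC410347) averaged 5.67 ± 0.46 log2 CPM in C21, 6.37 ± 0.21 in C23 and 6.29 ± 0.09 in C28, with an adjusted p of 0.0678 in the limma F test. The sequencing run was spread unevenly over the exposed colonies. Run 4184 held every nurse of C28, no nurse of C23 and, from C21, only the nurse C21-N4. It held no forager of C21 but most foragers of C23 and C28. The part of the run in the differences between exposed colonies was not tested. The foragers of C21 were not low: Big brother averaged 6.5 ± 0.14 there, and lilliputian (LOC100577139) 8.41 ± 0.11, the highest mean of the 3 exposed colonies for each gene. The foragers of C25 averaged 6.54 ± 0.13 for Big brother, the highest of the 3 unexposed colonies. For the other 3 genes low in its nurses they were lowest or level with the lowest, with means of 6.14 for hairy beside 6.32 and 6.24 in C26 and C27, 7.30 for tramtrack beside 7.32 and 7.47, and 8.08 for lilliputian beside 8.08 and 8.37.

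**Figure D4:**
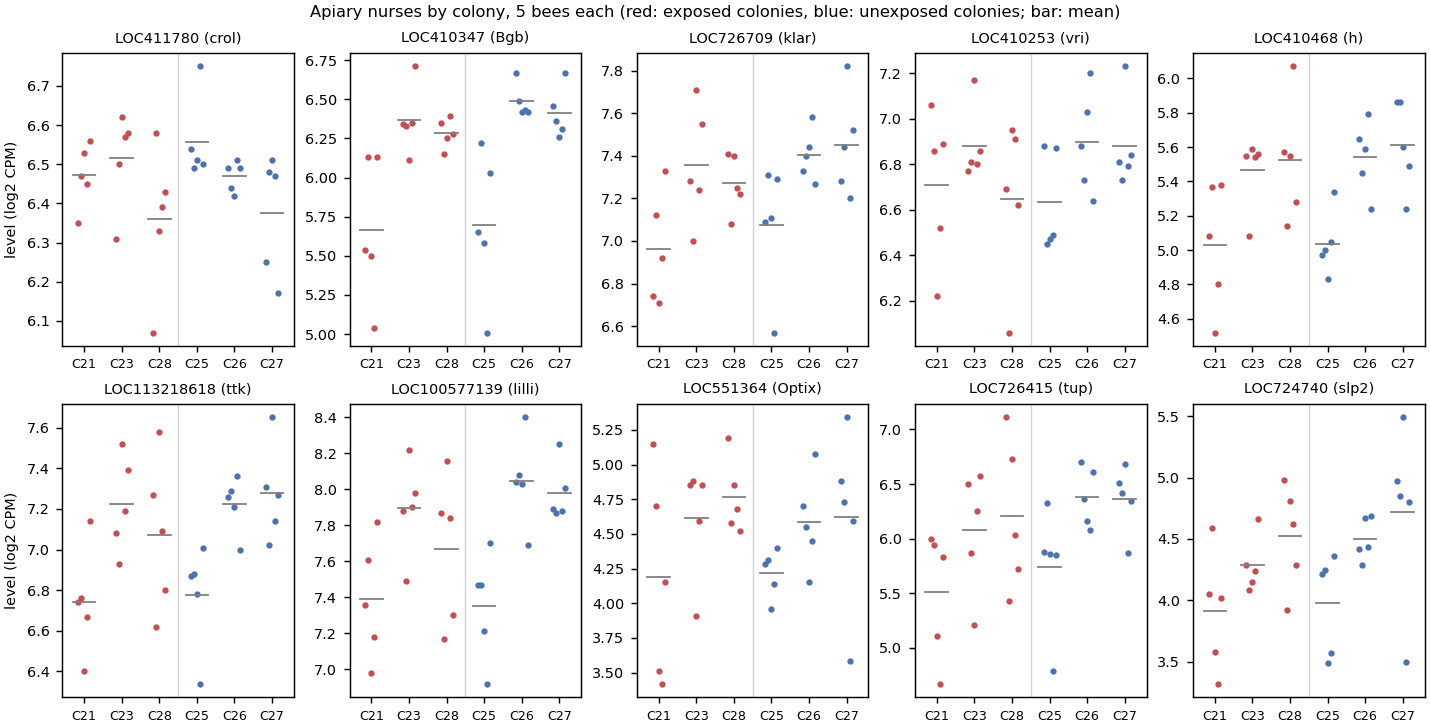
Level of each of the 10 genes (vertical axes, log2 CPM) in single apiary nurses by colony, 5 bees a colony, with a bar at the colony mean; red colonies were exposed and blue ones unexposed. Nurses of C21 and C25 lie low for Big brother and hairy, with means of 5.67 and 5.70 for Big brother against 6.29 to 6.48 in the other 4 colonies.

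Across single bees the genes moved together within colonies. The correlation of each of the 45 pairs was computed over 30 foragers and over 30 nurses after colony means had been removed. These bees share their colony, their table scaling and, in part, the sequencing run, so the values describe these libraries and carry no test. The median Pearson r of the pairs was 0.50 in foragers and 0.48 in nurses, while the median over all pairs of genes was -0.003 in both. Of the 45 pairs, 22 in foragers and 21 in nurses had an r above 0.5, against 6.41% and 6.47% of all gene pairs.

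With all bees, crooked legs (LOC411780) had a negative r to each of the other 9 genes in both castes. Its lowest values were -0.47 with Big brother in foragers and -0.57 with tailup in nurses. The remaining 36 pairs had r from 0.23 to 0.89 in foragers and from 0.12 to 0.93 in nurses. Neither pattern held in full without the foragers C23-F3 and C28-F9 and the nurses C27-N7 and C28-N2. Crooked legs then had a negative r to 6 of the 9 genes in each caste, and 4 of the 36 pairs in foragers and 1 in nurses were negative, among them LOC726709 with hairy at -0.17 in foragers.

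In foragers the correlations fell when 2 bees were left out. Without C23-F3 and C28-F9 the median r fell from 0.50 to 0.18, and the number of pairs above 0.5 from 22 to 4. In nurses, without C27-N7 and C28-N2, the 2 nurses farthest below their colony's mean over the 9 genes, the median r was 0.40 and 18 pairs stayed above 0.5. Both alternatives were chosen after the values were seen. They leave out the lowest bees over these same genes, which tends to weaken r by construction. The median over all gene pairs without these bees was not computed.

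Of the 45 pairs, 4 had an r above 0.5 in both castes, with and without these bees. Tramtrack and lilliputian formed the tightest pair, with an r of 0.89 in foragers and 0.93 in nurses, and of 0.61 and 0.92 without the 2 bees of each caste. Big brother and tailup had an r of 0.83 and 0.66, and of 0.70 and 0.67 without these bees. Optix and sloppy paired 2 had 0.72 and 0.75, then 0.63 and 0.66, and LOC726709 and tramtrack 0.74 and 0.82, then 0.51 and 0.83.

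Other factors of the list joined these pairs. Mblk-1, a DNA-binding factor of mushroom body neurons, had an r of 0.86 with tramtrack and 0.83 with lilliputian in foragers, and of 0.86 and 0.91 in nurses. In foragers these fell to 0.65 and 0.45 without the 2 low bees. Sox-2, a factor of neural progenitors and neurons, had an r of 0.83 with Big brother and 0.90 with tailup in foragers, and of 0.81 and 0.80 in nurses, and the retinal homeobox gene had 0.70 and 0.85, then 0.74 and 0.83. Mblk-1 had an r of 0.27 and 0.34 with Big brother and tailup in foragers and of 0.21 and 0.20 in nurses. Without the 2 low bees the forager values were -0.21 and -0.17. Sox-2 also had an r of 0.76 with tramtrack and 0.69 with lilliputian in foragers, which fell to 0.47 and 0.23 without the 2 low bees. Dachshund had an r of 0.86 with tramtrack and 0.88 with lilliputian in nurses.

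**Figure D5:**
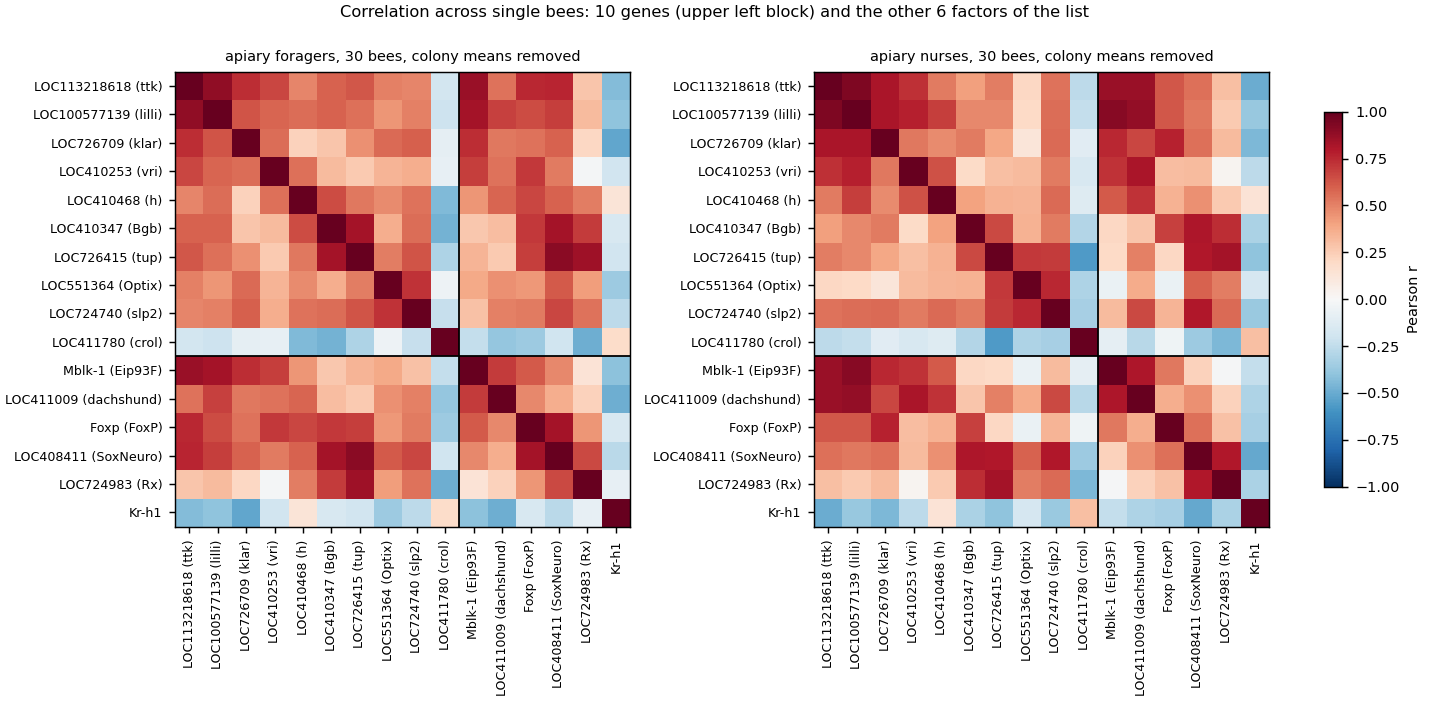
Pearson r across 30 foragers and 30 nurses of the apiary, colony means removed, between the 10 genes (upper left block) and the other 6 factors of the list; red is positive and blue negative, on a scale from -1 to 1. Tramtrack, lilliputian and Mblk-1 are red against each other in both castes, as are Big brother, tailup, Sox-2 and the retinal homeobox gene. Other pairs across these genes are red too, such as Sox-2 with tramtrack at 0.76 in foragers (0.47 without the bees C23-F3 and C28-F9, not shown). Crooked legs is blue against all 9 other members in both castes, with all bees included.

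Library depth, sequencing run and other tissue were set beside the genes. The r of a member with the log of reads per library lay between -0.41 (Optix, foragers) and 0.29 (Big brother, nurses). The cuticle gene CPR5 had an r of 0.73 with tailup and 0.70 with Big brother in foragers, but of 0.22 and 0.09 in nurses, and its level in apiary foragers was 0.992 to 4.23 CPM. The part of CPR5, alpha-amylase and the run in the correlations was not tested.

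Many other genes moved with these. The mean of the 9 genes other than crooked legs had an r above 0.5 with 16.2% and below -0.5 with 15.4% of the 11371 other genes in foragers, and with 14.2% and 6.41% of the 11261 other genes in nurses. By the mean r over both castes, the gene most like each member was outside the list for all 10, and none of these 10 genes is named in the sources used here. The closest were GB47058, with an r of 0.97 in foragers and 0.94 in nurses to tramtrack, and GB55538, with 0.94 and 0.95 to lilliputian. The ID of GB47058 follows directly on that of tramtrack, GB47057, and whether the genes share reads was not tested. Among the 16 factors, tramtrack and lilliputian were each the closest to the other, at a mean r of 0.91, and Sox-2 was the closest to Big brother (0.82), tailup (0.85) and sloppy paired 2 (0.74).

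In the field pools, group means were removed in place of colony means. The median r of the 45 pairs was 0.89 over 10 forager pools and 0.85 over 9 nurse pools. Of the pairs, 36 and 35 had an r above 0.5, against 19.8% and 22.7% of all gene pairs. The forager pools are those by which the genes were chosen, so their values are a description. Pool 2J1 in foragers and 2J6 in nurses were the low points for the 9 genes within their groups. A single low pool can raise the r of many pairs together. The medians and counts were not computed without these pools, so the share of the correlation that rests on them was not tested. Crooked legs had a negative r in 8 of its pairs in forager pools and in 9 in nurse pools.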

How the data were processed

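Per the labels and the study's methods, reads were trimmed with Trimmomatic 0.36 and aligned and counted with STAR on the amel 4.5 assembly and its Official Gene Set. The authors worked in R 3.6.3, normalised libraries with edgeR (TMM), and deposited log2 CPM in 4 tables, each scaled and filtered on its own. Brains of 79 libraries were measured, and 10.5 to 45.1 M reads per library were worked back from the steps of the log2 values (all values below 20000 reads within 0.1 of a whole number). In the apiary forager table, 2 columns match no single sample and were used under the unexposed group and the colony that their names give. Their sequencing run was taken as that of the rest of their group. For all other libraries the run is a number read from the sample description. Groups came from the labels.

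Exposure and colonies were tested on the log2 values as deposited with limma 3.58.1 in R 4.3.3 (lmFit, eBayes with trend, two-sided; F test over colonies), with Benjamini-Hochberg adjustment over all genes of a table and a threshold of 0.05. Castes were compared on the recovered reads of both tables, with median-ratio size factors, 2 prior reads and exposure in the model. Statmod 1.5.0 served the colony block, and Python 3.11.15, numpy 2.4.6, pandas 2.3.3, scipy 1.17.1 and matplotlib 3.10.9 the descriptions and figures. The scripts were tested on simulated data.

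Single bees count as replicates, but exposure was given to colonies, so p-values mostly measure the spread between bees. The apiary caste p-values also count bees, so they do not measure how the caste difference varies between colonies. Castes are paired by colony: deviations of the foragers and nurses of 1 colony correlated at 0.23 to 0.46 over genes in the apiary and at -0.20 to 0.49 in the field. No 2 libraries of a group agreed within sampling noise. All 10 genes are named in the text, the other 6 factors by counts and where a result turns on one, and for each member the gene with the highest mean r over both castes. The genes and lists were chosen with earlier results of these data known. Of 11525 gene IDs, 0 matched the reference table by ID, so partner genes were not named and no sequence was printed. Alternatives covered filters, scaling, pseudocount, the test, blocks and left-out libraries.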

Additional observations from a re-analysis of the deposited data

Results flagged for a closer look

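Dixon's test for a single value apart from the rest of its group was made for the 10 genes in the 4 field groups, 40 sets in all, and marked 8. Chance marks about 1 in 20 groups, but that rate is no measure for the field foragers, whose values chose the genes, and the marks there are a description. Of the 8, 7 were the exposed forager pool 2J1, below the other 4 exposed pools: LOC726709 at 6.35 log2 CPM (next 7.02), LOC410253 at 6.52 (7.29), tramtrack (LOC113218618) at 6.19 (7.24), lilliputian (LOC100577139) at 7.01 (7.92), Optix (LOC551364) at 3.9 (4.74), tailup (LOC726415) at 5.28 (6.43) and sloppy paired 2 (LOC724740) at 3.31 (4.44). The genes correlate across libraries, so these 7 are not separate events. The eighth was Big brother (LOC410347) in the exposed nurse pool 2J2, at 6.16 against a next value of 6.27, in a group whose whole range was narrow. In the unexposed nurse group of 4 pools, no gene was marked for 2J6, although it was the lowest pool in 9 of 10 genes.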

How the results depend on the processing

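In exposed against unexposed field nurses and apiary nurses, 0 of the 10 genes were called under every alternative run, and in apiary foragers under all but 1, which called 2 without the bees C23-F3 and C28-F9. Left-out pools or colonies gave 0 members in each of these, while the genes called over the whole table ranged from 0 to 68 in apiary foragers and from 0 to 157 in apiary nurses (68 without C23 in foragers; 117 without C21 and 157 without C23 in nurses), and with colony as a random block 1 and 0 genes were called. Signs changed under some alternative in 1 gene in field nurses, 4 in apiary foragers beside Optix, whose difference of 0.00 ranged from -0.09 to 0.14 with 1 colony left out, 5 in apiary nurses, 2 in apiary castes and 2 in field castes. For castes, pairing by colony (replicate block) called 9 members in the apiary and 1 in the field, as without it. In the apiary this block removes colony means only and still counts bees as replicates. How the caste difference varied between colonies was therefore not the measure of its error. In the apiary, left-out colonies gave 7 to 9 members, losing Big brother and Optix without C21 or C25, while 5708 to 6412 of 11151 genes passed. Exposed or unexposed bees alone gave 7 and 6 (5232 and 4303 genes), and 6 were called without both C21 and C25 (5583 genes), where Big brother stood at -0.02 in place of 0.28. In the field 2 members were called with total reads as library size (2289 of 10734 genes) and without the forager pool 2J1 and nurse pool 2J6 (2740 genes), and left-out colonies gave 1 to 2. Colony tests kept their number of members under each alternative, although genes called over the table fell from 11 to 6 with a filter of 1 CPM in exposed foragers and from 121 to 32 without the shallowest library in exposed nurses. The median r of the pairs was 0.18 in foragers without C23-F3 and C28-F9, and 0.65 in nurses when colony means were not removed; the other alternatives moved it by less than its jackknife error (0.22 and 0.13). The cause of these changes was not tested. With 4 or 5 pools a group, the data leave any difference within the field nurse intervals possible.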

Other observations

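The spread between bees of a colony was larger in exposed than in unexposed foragers for 10 of the 10 genes, with a median ratio of the standard deviations of 1.42, beside 1.29 over all genes of the table and 78.2% of genes with a larger spread in exposed bees. Without the bees C23-F3 and C28-F9, 5 of the 10 genes had the larger spread in exposed foragers, with a median ratio of 0.99, beside 1.12 over all genes. In nurses the spread was larger in exposed bees for 9 of the 10 genes, with a median ratio of 1.31, beside 1.26 over all genes. These ratios were computed after the values had been seen and were not tested.

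By the reference annotation of assembly Amel_HAv3.1, 3 of the 10 genes lie on linkage group 11 (tailup, Big brother and LOC410253), in that order, with 86 and 69 genes between them. Tailup and Big brother were among the tight pairs across single bees, at an r of 0.83 in foragers and 0.66 in nurses, whereas Big brother and LOC410253 had an r of 0.32 and 0.19.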
